A study of Mus musculus with 13 samples.

Results

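The genes described here are 6 subunits of the phagocyte NADPH oxidase: Cybb and Cyba, which encode the membrane-bound flavocytochrome, Ncf1 and Ncf4, which encode cytosolic organizer proteins, and Rac1 and Rac2, which encode the small GTPases of the complex. They were chosen by their known role in the enzyme, with earlier results of these data known. They are 6 of the 52636 genes in the files, and all 6 were among the 17086 genes with enough counts to be tested. A further cytosolic subunit of the enzyme was not analysed here.

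In resting phagocytes the oxidase is held apart. The heterodimer of gp91phox (Cybb) and p22phox (Cyba) sits in the membrane, while p47phox (Ncf1) and p40phox (Ncf4) wait in the cytosol and Rac is kept inactive by a binding partner. On stimulation the cytosolic proteins and GTP-bound Rac move to the membrane, and gp91phox passes electrons from NADPH to oxygen to make superoxide. Microglia, the resident macrophages of the brain, carry this enzyme, and its superoxide serves in killing microbes and can also injure neighbouring neurons.

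RNA was sequenced from myeloid cells sorted out of cortex and hippocampus at 14 to 15 months of age, in 7 PS2APP;Trem2wt mice (5 females and 2 males, labelled PS2APP) and 6 PS2APP;Trem2ko mice (5 females and 1 male, labelled PS2APP;Trem2KO). Both groups carried the PS2APP transgenes, which express human presenilin 2 and human APP with familial Alzheimer's disease mutations, so the comparison holds no mouse without the transgenes. The PS2APP;Trem2ko mice were in addition homozygous for a constitutive null allele of Trem2, a lipid-sensing receptor of microglia, made in the C57BL/6N strain and crossed to PS2APP mice on C57BL/6J. Each sample was 1 mouse, and p-values measure the spread between mice. The sort kept live CD11b+ CD45+ cells without Ccr2 or Ly6g on the surface, a gate that also admits the few macrophages at the borders of the brain. Because these were bulk samples, fewer cells of a type and less RNA per cell cannot be told apart.

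Between 26120961 and 114857155 counts were assigned to genes in each PS2APP;Trem2wt mouse, with a median of 3.52e+07. In PS2APP;Trem2ko mice the range was 41567025 to 120569609, with a median of 5.54e+07. Trem2 checked the labels: its level was 818 to 1244 nRPKM (reads per kilobase of transcript, scaled for depth by the authors) in the PS2APP;Trem2wt mice and 0.393 to 2.29 nRPKM in the PS2APP;Trem2ko mice. The 12 microglia markers summed to between 14170 and 17189 nRPKM in PS2APP;Trem2wt and between 14537 and 16428 nRPKM in PS2APP;Trem2ko mice. The 8 border macrophage markers summed to 11.4 to 33.9 and 19.4 to 49.0 nRPKM, and the 8 monocyte markers to 4.50 to 27.8 and 4.70 to 28.7 nRPKM. The 14 neutrophil markers summed to 145 to 394 and 112 to 181 nRPKM. Csf3r, which microglia also express, gave 88.1 to 153 and 110 to 165 nRPKM of these sums. Ly6g, a marker the sort selected against, was listed at 0 in 7 of the 13 mice. Ngp, another of the 14, was listed at 0 in 1 mouse. It ran from 6.10 to 96.5 nRPKM in PS2APP;Trem2wt and from 0 to 20.9 nRPKM in PS2APP;Trem2ko mice.

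1 of the 6 subunits, Rac1, was lower in PS2APP;Trem2ko mice by the quasi-likelihood test of edgeR, with a threshold of 0.05 on the adjusted p, and 0 were higher. Of all genes tested, 2.04% passed by this rule, 1.53% in the lower and 0.503% in the higher direction. Without adjustment, 1 subunit was lower (Rac1) and 1 was higher (Ncf4), against 14.8% of all genes tested in either direction, and voom+limma and DESeq2 also gave 1 lower and 0 higher after adjustment. The log2 fold change was below 0 for 3 subunits and above 0 for 3, with a median of -0.03 beside 0.0039 over all genes tested. Rac1 was also the 1 subunit whose log2 CPM (counts scaled to library size) did not overlap between the genotypes, a pattern that 1.64% of all genes tested showed, 1.22% in the lower and 0.421% in the higher direction. The call on Rac1 lay close to the threshold and was lost when any 1 mouse was left out.

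**Figure D1:**
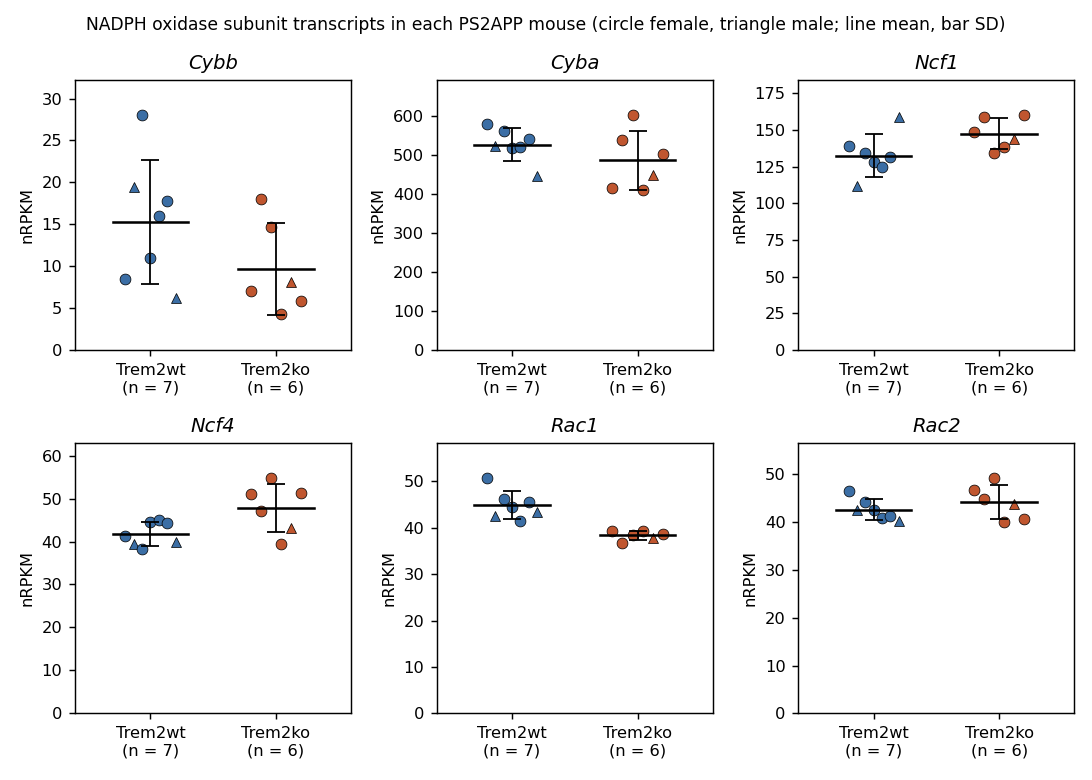
Level of each subunit transcript in each mouse, in nRPKM on a linear axis from 0, with circles for females, triangles for males, a line at the mean and a bar of 1 SD. Rac1 was lower in all 6 PS2APP;Trem2ko mice (36.8 to 39.3 nRPKM) than in the 7 PS2APP;Trem2wt mice (41.4 to 50.6 nRPKM), and the ranges of the other 5 subunits overlapped.

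The subunits differed widely in level per length of transcript. Over the 13 mice Cyba had the highest mean level, 509 nRPKM, followed by Ncf1 at 139 nRPKM. Cybb was lowest at 12.7 nRPKM, and Ncf4, Rac2 and Rac1 lay between at 44.6, 43.3 and 41.9 nRPKM. Cyba exceeded Ncf1, Ncf1 exceeded Ncf4, and Rac1 exceeded Cybb in 13 of 13 mice with no overlap of their ranges. The order of the middle 3 differed between the genotypes. In PS2APP;Trem2wt mice the means ran from Rac1 at 44.9 through Rac2 at 42.6 to Ncf4 at 41.8 nRPKM, and their ranges overlapped. In PS2APP;Trem2ko mice they ran from Ncf4 at 47.8 through Rac2 at 44.1 to Rac1 at 38.4 nRPKM, and Rac1 was below both others in 6 of 6 mice with no overlap of ranges, while Ncf4 and Rac2 overlapped.

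The 2 Rac genes are the closest relatives among the subunits, and their sequences bear on how far reads of 50 bases can tell them apart. Their coding sequences, taken from the GENCODE M21 transcripts on GRCm38, are 576 bases each and 77.1% identical, with 132 differing bases. The stretch shown, bases 361 to 420 of each coding sequence read 5′ to 3′, holds 3 differences, marked in capitals. It comes from the most alike part of the pair and is shown because a read from it carries the least information on its gene of origin.
Rac1: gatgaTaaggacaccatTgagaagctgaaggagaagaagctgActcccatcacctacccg
Rac2: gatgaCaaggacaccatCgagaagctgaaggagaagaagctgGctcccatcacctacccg
The fewest differences in any window of 50 bases was 2 and the longest identical run was 29 bases, so no 50-base word of one coding sequence occurs in the other.

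Rac1 encodes the widely expressed GTPase that drives both the oxidase and the actin cytoskeleton. Its gene lies on chromosome 5 from 143503634 to 143528036 on the minus strand (GENCODE M21, GRCm38). In PS2APP;Trem2wt mice its level ran from 41.4 through a median of 44.4 to 50.6 nRPKM. In PS2APP;Trem2ko mice it ran from 36.8 through a median of 38.5 to 39.3 nRPKM. All 6 PS2APP;Trem2ko mice lay below all 7 PS2APP;Trem2wt mice, and the means were 44.9 ± 3.05 (SD, n = 7) and 38.4 ± 0.952 nRPKM (SD, n = 6). In edgeR the log2 fold change was -0.23 (SE 0.06; 95% interval -0.35 to -0.11; adjusted p = 0.0483), so that Rac1 fell by 14.6%. After the genotype means were removed, Rac1 was among the least variable transcripts, with a residual SD at percentile 0.445 of the 11015 tested genes with a mean of at least 1 nRPKM.

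Whichever of the 13 mice was left out, the edgeR adjusted p rose above 0.05 (0.0536 to 0.0984), while the log2 fold change stayed between -0.25 and -0.20. Rac1 also shares ground with Daglb, which encodes a lipase that makes an endocannabinoid and which runs on the opposite strand of chromosome 5 from 143464584 to 143505942. Of the 50-base words in the exons of Rac1, 50.3% also lie in exons of Daglb, and the library kit does not mark the strand, so reads from there cannot be assigned to either gene with certainty. Daglb itself had levels of 110 ± 15.9 nRPKM (SD, n = 7) and 112 ± 7.53 nRPKM (SD, n = 6). Its edgeR log2 fold change was 0.01 (SE 0.09; adjusted p = 0.964). With the counts of both genes summed, an alternative added after the data were seen, the log2 fold change was -0.05 (SE 0.07) with an edgeR adjusted p of 0.826. Daglb supplied 67.1% to 78.6% of that sum in each mouse, so a smaller difference was built into it, and it is no test of Rac1 alone.

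Rac2, the Rac form largely restricted to blood and myeloid cells, had levels of 40.3 to 46.5 nRPKM with a median of 42.5 in PS2APP;Trem2wt mice. In PS2APP;Trem2ko mice it ran from 40.1 to 49.1 nRPKM with a median of 44.2. 1 PS2APP;Trem2ko mouse lay below all PS2APP;Trem2wt mice and 2 lay above them. The edgeR log2 fold change was 0.05 (SE 0.06; 95% interval -0.08 to 0.18; adjusted p = 0.764). Rac2 lies on chromosome 15 from 78559167 to 78572783 on the minus strand and shares 1.29% of its 50-base words with other genes, none with Rac1.

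**Figure D2:**
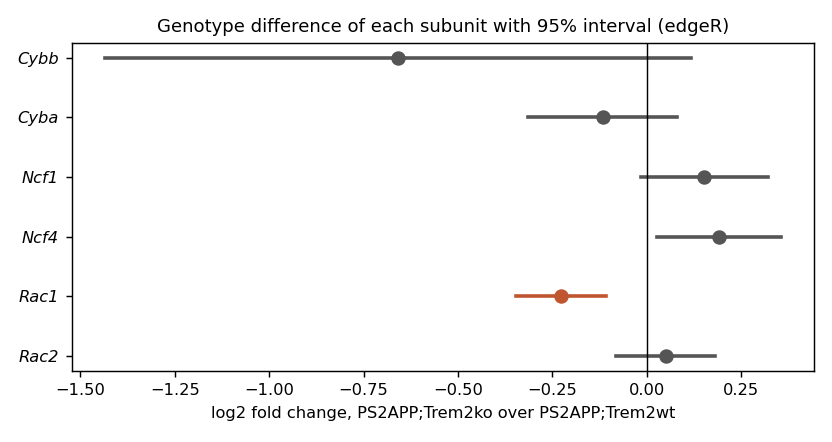
Genotype difference of each subunit as the edgeR log2 fold change of PS2APP;Trem2ko over PS2APP;Trem2wt, with points for the estimates and lines for the 95% intervals, orange where the adjusted p was 0.05 or less. The interval of Cybb, from -1.43 to 0.12, is the widest, and that of Rac1, from -0.35 to -0.11, lies below 0.

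Because both Rac forms are measured in each mouse, their ratio does not depend on how libraries are scaled. The Rac1 to Rac2 ratio of nRPKM was 0.999 to 1.10 in the PS2APP;Trem2wt mice and 0.784 to 0.982 in the PS2APP;Trem2ko mice. The ranges did not overlap. The mean log2 ratio was 0.07 ± 0.05 (SD, n = 7) against -0.20 ± 0.12 (SD, n = 6), a difference of -0.27 with a two-sided exact permutation p of 0.00117, the smallest that the 1716 splits of these mice allow, and 0.0035 when adjusted over the 3 ratios compared. The difference stayed between -0.31 and -0.24 when each mouse was left out in turn. With Daglb counts summed into Rac1 it was -0.09 and its adjusted exact permutation p was 0.598, a value set mostly by Daglb.

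**Figure D3:**
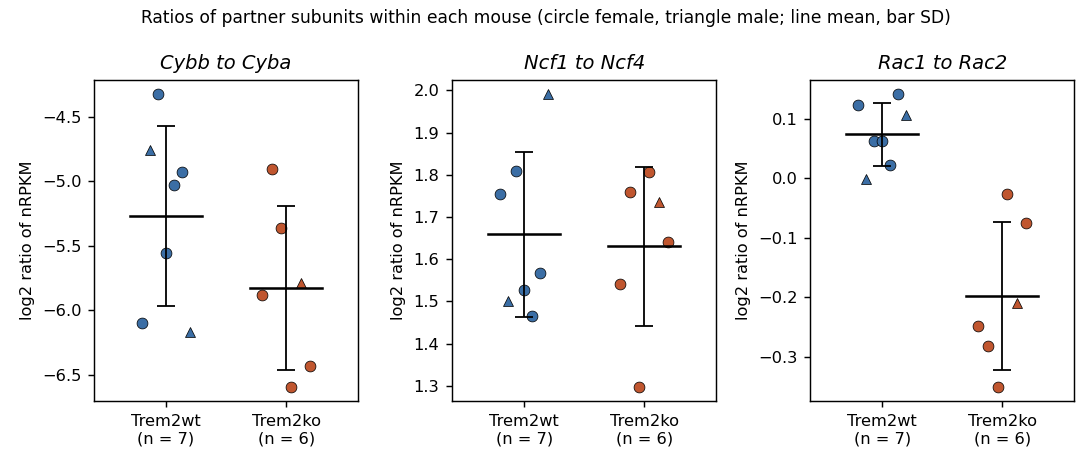
Log2 ratio of nRPKM of partner subunits within each mouse, with circles for females, triangles for males, a line at the mean and a bar of 1 SD, and a separate vertical axis for each ratio. The Rac1 to Rac2 ratio of every PS2APP;Trem2ko mouse (-0.35 to -0.03) lay below that of every PS2APP;Trem2wt mouse (-0.0016 to 0.14), while the other ratios overlapped.

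Cybb encodes the catalytic core, gp91phox, and lies on the X chromosome from 9435252 to 9487771 on the minus strand. Its level ran from 6.21 through a median of 16.0 to 28.0 nRPKM in PS2APP;Trem2wt mice. In PS2APP;Trem2ko mice it ran from 4.26 through a median of 7.58 to 18.0 nRPKM. 2 PS2APP;Trem2ko mice lay below all PS2APP;Trem2wt mice, 2 PS2APP;Trem2wt mice lay above all PS2APP;Trem2ko mice, and the rest overlapped. The means were 15.3 ± 7.45 (SD, n = 7) and 9.67 ± 5.45 nRPKM (SD, n = 6), and the edgeR log2 fold change was -0.66 (SE 0.36; 95% interval -1.43 to 0.12; adjusted p = 0.426). The difference did not exceed the spread between mice, and the interval spans both a fall to well under the PS2APP;Trem2wt level and a small rise. Its edgeR log2 fold change lay between -0.93 and -0.44 over the fits that left out 1 mouse.

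Cybb was the most variable of the subunits. Its highest mouse had 6.58 times the level of its lowest, and its residual SD stood at percentile 98.6 of the tested genes with a mean of at least 1 nRPKM, where Cyba stood at percentile 37.8. The transcripts most like it across the 13 mice, by Pearson r of log2 CPM with genotype means removed among 9557 protein-coding genes, were Gm11273 (r = 0.95) and 2 genes of the translation machinery, Rpl4 (r = 0.93) and Eef1b2 (r = 0.93). These correlations are a description over mice that share library preparation but differ in depth. PS2APP;Trem2wt replicate 7 and PS2APP;Trem2ko replicates 1 and 5, with the most counts, ranked 11, 10 and 9 of 13 in Cybb. PS2APP;Trem2wt replicate 3, next in counts, ranked 1. The part of depth in these correlations was not tested. The summed level of 81 ribosomal protein genes, looked at after these likenesses were seen, was 384 to 410 nRPKM in the 4 mice with the most Cybb and 269 to 328 nRPKM in the 4 mice with the least. It did not follow Cybb throughout, since the highest sum, 411 nRPKM, was in a PS2APP;Trem2ko mouse that ranked 6 of 13 in Cybb. Whether what moved the ribosomal protein transcripts also moved Cybb was not tested.

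Cybb is also expressed strongly by neutrophils and monocytes. PS2APP;Trem2wt replicate 2, with the second highest Cybb level at 19.4 nRPKM, had the highest summed neutrophil markers, 394 nRPKM. PS2APP;Trem2wt replicates 6 and 3, ranked 4 and 1 of 13 in Cybb, had the next highest sums, 220 and 210 nRPKM. PS2APP;Trem2ko replicate 2, ranked 3 in Cybb at 18.0 nRPKM, had one of the lowest sums, 143 nRPKM. Csf3r, which microglia also express, supplied 88.1 to 153 nRPKM of these sums in PS2APP;Trem2wt and 110 to 165 nRPKM in PS2APP;Trem2ko mice. In PS2APP;Trem2wt mice log2 Cybb and the score of the monocyte markers had a positive correlation that did not pass after adjustment (Pearson r = 0.78, exact permutation p = 0.0415, adjusted p = 0.25; Spearman rho = 0.86, exact permutation p = 0.0238, adjusted p = 0.19; n = 7), and r was 0.94 without the 2 mice farthest from the median score. None of the 8 relations computed, of Cybb with interferon, border macrophage, monocyte and neutrophil scores within each genotype, passed after adjustment. In PS2APP;Trem2ko mice the interferon relation changed from r = 0.82 to -0.93 without 2 mice, so it rested on those mice. The sign also turned for interferon (0.62 to -0.33) and border macrophage scores (0.56 to -0.05) in PS2APP;Trem2wt mice. It turned for border macrophage (0.40 to -0.65) and neutrophil scores (0.34 to -0.48) in PS2APP;Trem2ko mice. All values without 2 mice, that of the monocyte relation included, rest on few mice. The part of these cells in the level of Cybb was not tested.

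Cyba encodes p22phox, without which gp91phox is unstable, and lies on chromosome 8 from 122424776 to 122432930 on the minus strand. Its level ran from 446 through a median of 523 to 581 nRPKM in PS2APP;Trem2wt mice and from 411 through a median of 476 to 603 nRPKM in PS2APP;Trem2ko mice. 2 PS2APP;Trem2ko mice lay below and 1 above all PS2APP;Trem2wt mice. The edgeR log2 fold change was -0.12 (SE 0.09; 95% interval -0.31 to 0.08; adjusted p = 0.605). The transcripts most like it were Eef1d (r = 0.94), a translation elongation factor subunit, Cox4i1 (r = 0.93), a subunit of the respiratory chain, and Mrps18a (r = 0.93), a mitochondrial ribosomal protein.

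The log2 ratio of Cybb to Cyba, the partners of the flavocytochrome, averaged -5.26 ± 0.70 (SD, n = 7) in the PS2APP;Trem2wt group, while the PS2APP;Trem2ko group averaged -5.82 ± 0.64 (SD, n = 6). The difference of -0.56 had an exact permutation p of 0.16 and 0.24 when adjusted over the 3 ratios. The ranges overlapped across most of their length.

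Ncf1 encodes p47phox, the organizer that carries the cytosolic proteins to the membrane once it is phosphorylated. It lies on chromosome 5 from 134220053 to 134229625 on the minus strand, and 7.45% of its 50-base words also lie in other genes, nearly all in Gtf2ird2 on the opposite strand. Its level ran from 112 through a median of 131 to 159 nRPKM in PS2APP;Trem2wt mice and from 134 through a median of 146 to 160 nRPKM in PS2APP;Trem2ko mice. 5 PS2APP;Trem2wt mice lay below all PS2APP;Trem2ko mice and 2 PS2APP;Trem2ko mice lay above all PS2APP;Trem2wt mice. The edgeR log2 fold change was 0.15 (SE 0.08; 95% interval -0.02 to 0.32; adjusted p = 0.394).

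Ncf4 encodes p40phox, which binds a phosphoinositide of the phagosome membrane, and lies on chromosome 15 from 78244801 to 78262580 on the plus strand. Its level ran from 38.2 through a median of 41.3 to 45.1 nRPKM in PS2APP;Trem2wt mice and from 39.5 through a median of 49.1 to 54.7 nRPKM in PS2APP;Trem2ko mice. 4 of the 6 PS2APP;Trem2ko mice lay above all PS2APP;Trem2wt mice, and the other 2 lay within their range. The edgeR log2 fold change was 0.19 (SE 0.08; 95% interval 0.03 to 0.35), with an unadjusted p of 0.0255 and an adjusted p of 0.249. Ncf4 did not pass the test over all genes.

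The log2 ratio of Ncf1 to Ncf4 was 1.66 ± 0.20 (SD, n = 7) and 1.63 ± 0.19 (SD, n = 6), a difference of -0.03 with an exact permutation p of 0.796. Its direction turned without PS2APP;Trem2wt replicate 7 (0.03) or PS2APP;Trem2ko replicate 3 (0.04). The transcripts most like Ncf1 across mice were Neurl1a, Ano7 and Selplg (r = 0.84 to 0.87). Those most like Ncf4 were Pop4, Marcksl1 and Slc50a1 (r = 0.84 to 0.86), those most like Rac1 were Polr2l, Rheb and Nip7 (r = 0.80 for each), and Zfp524 (r = 0.94) and Slc15a3 (r = 0.91) were among those most like Rac2.

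With 10 females and 3 males, and Cybb on the X chromosome, the genotype difference was compared between the sexes. In PS2APP;Trem2wt mice Cybb averaged 16.3 nRPKM in 5 females and was 6.21 and 19.4 nRPKM in the 2 males. In PS2APP;Trem2ko mice it averaged 9.98 nRPKM in 5 females and was 8.13 nRPKM in the 1 male. The edgeR genotype by sex term had an adjusted p of at least 0.966 for each of the 6 subunits, a weak test with 1 PS2APP;Trem2ko male.

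The genes around the enzyme were described in lists. Beside the counts below, 14.8% of all genes tested had an edgeR unadjusted p of 0.05 or less in either direction. After adjustment 1.53% were lower and 0.503% were higher. Of 11 other oxidase family and assembly genes, 4 had enough counts to be tested. Cybc1, the chaperone that gp91phox needs to reach the membrane, was the most abundant at 61.5 ± 3.64 nRPKM (SD, n = 7) in PS2APP;Trem2wt mice, beside 64.4 ± 4.99 nRPKM (SD, n = 6) in PS2APP;Trem2ko mice. Rac3, the remaining Rac gene, had 4.09 and 3.99 nRPKM. By edgeR 0 of the 4 passed, 0 had an unadjusted p of 0.05 or less, voom+limma and DESeq2 also called 0, and the median log2 fold change was 0.11.

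Of 26 genes that control Rac or activate the oxidase, 1 was lower and 0 were higher by edgeR, with a median log2 fold change of -0.06. The 1 was Arhgdia, which encodes the GDP dissociation inhibitor that holds Rac in the cytosol. It ran from 89.3 through a median of 102 to 120 nRPKM in PS2APP;Trem2wt mice and from 74.6 through a median of 81.0 to 85.8 nRPKM in PS2APP;Trem2ko mice, without overlap. Its edgeR log2 fold change was -0.34 (SE 0.07; adjusted p = 0.0225), and the adjusted p rose above 0.05 without PS2APP;Trem2ko replicate 1 (0.0612) or PS2APP;Trem2ko replicate 4 (0.0554). Arhgdib, the related inhibitor of blood cells, was more abundant at 216 and 202 nRPKM, with a log2 fold change of -0.10 and an edgeR adjusted p that lay between 0.325 and 0.712 over the alternatives. Rap1b, a small GTPase of the same list, had 181 and 183 nRPKM. Hvcn1, the proton channel that balances the charge moved by the oxidase and named here after its values were seen, had 44.4 ± 5.33 (SD, n = 7) and 38.2 ± 3.64 nRPKM (SD, n = 6), with an edgeR unadjusted p of 0.0238 and an adjusted p of 0.241.

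**Figure D4:**
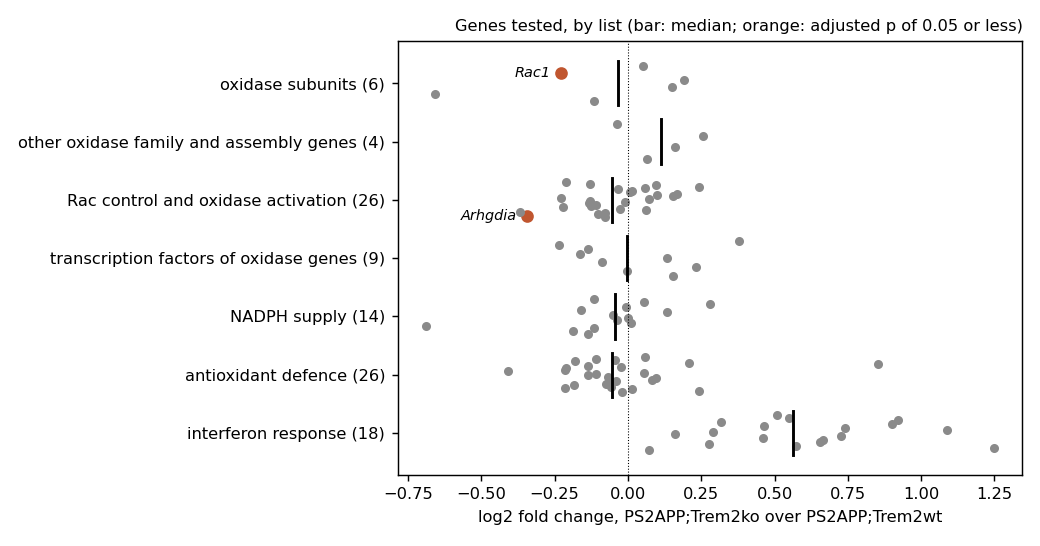
EdgeR log2 fold change of PS2APP;Trem2ko over PS2APP;Trem2wt of each tested gene in the oxidase subunits and 6 related lists, with the number of genes in brackets, a bar at each list's median and orange points for an adjusted p of 0.05 or less. Rac1 and Arhgdia are the genes past the test in these lists, and the 18 interferon response genes lie to the right of 0, though only 2 of the 6 PS2APP;Trem2ko mice had a summed level above the PS2APP;Trem2wt range.

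Of 9 tested transcription factors that act on oxidase genes, 0 passed by edgeR, voom+limma or DESeq2 and 2 were lower at an edgeR unadjusted p of 0.05 or less, with a median log2 fold change of 0.00. Spi1, the myeloid factor PU.1 that drives Cybb and Ncf1, had 102 ± 11.7 nRPKM (SD, n = 7) and 86.4 ± 9.42 nRPKM (SD, n = 6), a log2 fold change of -0.24 with an edgeR adjusted p of 0.212. Among females only, its log2 fold change was -0.36 with an edgeR adjusted p of 0.0483. That was the 1 setting of 22 alternatives in which Spi1 passed. Over the 13 edgeR fits that left out 1 mouse its adjusted p was 0.135 to 0.361, and 0 passed. Irf8, which acts with Spi1, had 188 and 177 nRPKM.

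The 14 genes of NADPH supply included 0 past the test by edgeR, voom+limma or DESeq2, with 1 lower at an edgeR unadjusted p of 0.05 or less and a median log2 fold change of -0.04. Idh2, a mitochondrial source of NADPH, had 64.3 and 59.5 nRPKM, and Taldo1, an enzyme of the pentose phosphate pathway, had 58.6 and 60.9 nRPKM. The 26 antioxidant genes included 0 past the test by edgeR and voom+limma and 1, Prdx4, by DESeq2, with 2 lower and 1 higher at an edgeR unadjusted p of 0.05 or less and a median of -0.06. Prdx4, a peroxidase of the endoplasmic reticulum named after its values were seen, had 46.4 ± 6.26 (SD, n = 7) and 34.9 ± 5.43 nRPKM (SD, n = 6), with a log2 fold change of -0.41 and an edgeR adjusted p of 0.0627. Gpx1, the main cytosolic glutathione peroxidase, had 259 and 224 nRPKM, and Nfe2l2, the factor that switches on antioxidant genes, had 123 and 131 nRPKM.

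All 18 interferon response genes, a programme that can raise Cybb in macrophages, had a positive log2 fold change with a median of 0.56, beside 50.7% positive over all genes tested. By edgeR 0 passed after adjustment and 4 had an unadjusted p of 0.05 or less, while voom+limma called 0 and DESeq2 called 1. Their summed level was 173 to 464 nRPKM in PS2APP;Trem2wt and 211 to 652 nRPKM in PS2APP;Trem2ko mice. 2 PS2APP;Trem2ko mice, replicates 2 and 3, had 652 and 505 nRPKM, and the other 4 had 211 to 261 nRPKM, within the PS2APP;Trem2wt range. The median sum was lower in PS2APP;Trem2ko (254 nRPKM) than in PS2APP;Trem2wt mice (273 nRPKM). The most abundant genes, Bst2 and Ifitm3, weigh most in these sums. Their median levels were lower in PS2APP;Trem2ko mice (67.4 against 82.6 and 31.4 against 41.9 nRPKM), as was that of Isg15 (6.72 against 7.09 nRPKM). Every other gene of the list had a higher median level in PS2APP;Trem2ko mice. Among the lists of cell types, Cx3cr1, the fractalkine receptor of microglia, fell from 1526 ± 144 (SD, n = 7) to 1088 ± 127 nRPKM (SD, n = 6) with an edgeR adjusted p of 0.0067. Flt1, a vascular growth factor receptor in the list of neural and vascular markers, fell from 1.76 ± 0.674 (SD, n = 7) to 0.386 ± 0.136 nRPKM (SD, n = 6). Its edgeR adjusted p was 0.000336. Pecam1, Cldn5 and Kcnj8, the other vascular genes of that list, had edgeR log2 fold changes of 0.11, -0.16 and -0.0023. Their edgeR adjusted p was 0.739, 0.925 and 0.999. The median log2 fold change over the 13 genes of that list was 0.06. Whether vascular material differed between the genotypes was not tested. Besides Cx3cr1 and Flt1, no marker of the 6 cell type lists passed by edgeR, voom+limma or DESeq2. The 8 tested neutrophil markers among them had a median log2 fold change of -1.33. Of these 8, 2 were lower at an edgeR unadjusted p of 0.05 or less. The 5 tested lymphocyte markers had a median of 0.61, and 1 was higher at that level.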

How the data were processed

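Myeloid cells of 13 mice were sequenced as single-end reads of 50 bases from SMART-seq v4 libraries. GSNAP alignments to GRCm38, made by the authors after read cleaning that included removal of ribosomal RNA, underlie the files. The counter, annotation release and use of strand are not given in the sources used here. For each mouse the authors deposited raw counts per gene and nRPKM, an RPKM scaled by size factors. Names (52403 of 52636 genes) and coordinates came from GENCODE M21, which may differ from the authors' annotation.

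Counts were tested with edgeR 4.0.16 in R 4.3.3 (filterByExpr, TMM, glmQLFTest, no covariate, Benjamini-Hochberg over 17086 genes), where a call is an adjusted p of 0.05 or less. Ratios were compared by exact permutation over mice with scipy 1.17.1, and 95% intervals came from the fit. List scores used log2(nRPKM + 0.1). Shared words were every run of 50 bases in the exons.

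Members and lists were chosen with earlier results of these data known. Genes named are the members, Trem2, of each list those past the test and the 2 most abundant, and the 3 most like each member, of which 1 is not reported here. Daglb, Prdx4, Hvcn1, Mx1 and the ribosomal protein genes were picked after values were seen. Ly6g, Gtf2ird2, Isg15, Pecam1, Cldn5 and Kcnj8 are named outside these rules.

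The genotype test was repeated with DESeq2 1.42.0 and with voom from limma 3.58.1, after RLE scaling, without a filter or with one of 10 counts in 6 mice, with a term for sex, in females alone, with limma on log2 nRPKM (0.1 or 1 added), and without each mouse in turn. The sum of Rac1 and Daglb was added after the data were seen. Counting error is small at these depths, and the number of mice limits precision. No pair of mice of a genotype agreed within sampling noise.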

Additional observations from a re-analysis of the deposited data

How the results depend on the processing

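Rac1 kept its negative log2 fold change under every alternative tried. Its edgeR adjusted p rose above 0.05 under RLE scaling (log2 fold change -0.23, adjusted p 0.0544), with no filter (-0.22, 0.182), with the filter of 10 counts in 6 mice (-0.23, 0.0536) and in females only (-0.25, 0.105, with fewer mice), and the count of lower members was then 0. It was 0.0357 with voom+limma, 0.0011 with DESeq2 and 0.0475 with sex as a covariate. Leaving out each mouse gave -0.25 to -0.20 for Rac1 and 0 lower members in each fit. With Daglb counts summed in, the log2 fold change was -0.0465 and the ratio to Rac2 -0.0886, both set mostly by Daglb. The Ncf1 to Ncf4 ratio ranged from -0.0642 to 0.0378 over the mice left out. The sign of Rap1b turned in females only (-0.0559) and over the mice left out (-0.0161 to 0.0407), and that of Daglb in females only (-0.00917) and over the mice left out (-0.0292 to 0.0654). The related lists hold 168 genes, not all of them tested. They had 3 genes past the test in the lower direction and 0 in the higher, beside 1.53% and 0.503% of all genes tested. DESeq2 gave 1 higher gene, Mx1, and leaving out each mouse gave 2 to 4 lower genes. Arhgdia had an adjusted p of 0.0552 with no filter, and Prdx4 passed with DESeq2, with limma on either log2 nRPKM scale and without PS2APP;Trem2ko replicate 2. Other changes are given beside the results. The cause of these changes was not tested, and the number of mice limits what could be detected. No paired analysis was possible because the labels carry no replicate numbers that could pair mice across the genotypes. Per the study's methods, mice of both genotypes were generally handled in pairs up to the sort, and no test here takes those pairs into account.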
